A study of Mus musculus with 22 samples.

Results

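The genes described here are 44 genes of the presynaptic release machinery in the mouse hippocampal CA1 region, chosen by name as synapsins, synaptotagmins, SNARE proteins and complexins, active zone and priming proteins, vesicle membrane proteins, vesicular glutamate transporters and 2 neurexins. All 44 were present among the 23361 genes of the FPKM matrix (a level scaled to transcript length and to the number of mapped fragments in the library), and all 44 passed the filter of a mean of at least 0.1 FPKM over all libraries, as 16978 genes did. CA1 was microdissected from 22 female F1 mice of a Swiss Webster by DBA/C57BL6 cross, with 1 mRNA library per mouse. Mice were fed either ad libitum (AL, the normal diet) or a calorie-restricted diet (CR) in which carbohydrates were reduced. Both diets began at the same age, before 5 months, so the older mice had been on their diet for longer. In CR mice, age and time under restriction therefore cannot be told apart, which also applies to the interaction of age and diet. Each diet was sampled in 5 mice at 5 months of age and in 6 mice at 15 months. All 4 groups were wild-type animals.

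Neurotransmitter is released when a vesicle docked at the active zone fuses with the presynaptic membrane. Synapsins hold vesicles in reserve, and RIM, Munc13, Bassoon and Piccolo dock and prime them. The SNARE proteins SNAP25, VAMP and syntaxin drive the fusion, and complexins clamp the assembled SNARE complex. Calcium is sensed by Doc2 proteins and by some of the synaptotagmins. CA1 pyramidal neurons send their axons largely out of CA1, so a CA1 dissection holds mRNA from local cell bodies, while much of the protein at CA1 synapses comes from axons of other regions.

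The libraries were comparable in scale. The median FPKM of a library ranged from 2.51 to 3.10, between 18281 and 19175 genes were above 0, and no pair of libraries held identical values. The read depth of each library is unknown, since the FPKM values did not yield whole read counts and the authors report only an average over samples. The libraries differed in markers of brain region, whose lists were chosen with earlier results of these data known. A region score, the mean log2 level of 7 neocortex and subiculum markers minus that of 6 CA1 pyramidal neuron markers, ranged from -4.08 to -2.52 in AL mice at 5 months and from -3.98 to -3.26 in CR mice at 5 months. It ranged from -1.56 to 0.185 in AL mice at 15 months and from -3.78 to -0.803 in CR mice at 15 months. Of the 6 CA1 markers, 4 were lower in AL mice at 15 months than at 5 months (Spink8 by -3.81 and Fibcd1 by -3.35 on the log2 scale). Another 1 of the 6 lay above 0 (0.63) and was not called. The summed level of the 6 CA1 markers was 232 to 507 FPKM in AL mice at 5 months and 180 to 278 FPKM at 15 months, and no CA1 marker was at 0 in a group. Of the 7 neocortex and subiculum markers, 4 were higher (Cux2 by 2.11 and Foxp2 by 1.79 on the log2 scale) and 1 lay below 0 (-0.32), not called. The sums of these 7 were 49.3 to 78.6 FPKM at 5 months and 62.6 to 149 FPKM at 15 months. None of 6 pan-neuronal, 8 GABAergic interneuron and 4 endothelial markers was called (1, 1 and 0 at an unadjusted p under 0.05). Lower in the same comparison were 4 of 8 choroid plexus, 2 of 5 CA2, 2 of 6 dentate granule cell, 1 of 6 oligodendrocyte and 1 of 4 microglial markers; 1 of 5 thalamic markers was higher, and CA3 (1 higher and 2 lower of 6) and astrocyte markers (1 each of 5) were mixed. In CR mice 6 of 8 choroid plexus and 2 of 5 CA2 markers were lower at 15 months and no marker of the other lists was called. At an unadjusted p under 0.05, 4 of 6 CA1 markers (median log2 difference of the list -0.89) and 5 of 7 neocortex and subiculum markers (0.79) passed in CR mice, with the same sign of the median as in AL mice (-1.67 and 1.34). In bulk tissue, fewer cells of a type and less RNA per cell cannot be told apart, which applies to every value given here. The part of these marker differences in the results was not tested beyond a fit that held the region score as a covariate, given with the age comparisons.

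The 44 genes spanned more than 2 orders of magnitude in level. Over all 22 libraries, 13 of them averaged at least 100 FPKM, 22 averaged from 10 to 100 FPKM, and 9 averaged under 10 FPKM. The 13 most abundant held 80.3% of the summed FPKM of the 44 genes. Snap25, the plasma membrane SNARE protein SNAP25, was the highest at a mean of 759 FPKM, with 562 FPKM in the lowest library and 948 FPKM in the highest. The vesicle protein synaptophysin followed (Syp, 413 FPKM), then the vesicle SNARE Vamp2 (390 FPKM), the vesicular glutamate transporter VGLUT1 (Slc17a7, 381 FPKM), the vesicle GTPase Rab3a (334 FPKM) and the fast calcium sensor Syt1 (326 FPKM). Complexins 1 and 2 stood close together (Cplx1, 281 FPKM; Cplx2, 274 FPKM). The synapsins Syn2 (208 FPKM) and Syn1 (173 FPKM), Syt11 (182 FPKM) and the vesicle glycoproteins Sv2a (126 FPKM) and Sv2b (104 FPKM) completed this set. FPKM is a level per length of transcript, so these genes can be ranked, but neighbours such as Cplx1 and Cplx2 or Vamp2 and Slc17a7 overlapped across libraries.

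The 9 genes of lowest level were mostly paralogs of abundant genes. They were VGLUT2 (Slc17a6, 8.08 FPKM), Syt2 (6.82 FPKM), Munc13-3 (Unc13c, 6.52 FPKM), synapsin III (Syn3, 5.61 FPKM), Syt10 (5.01 FPKM), complexin 3 (Cplx3, 5.01 FPKM), Syt6 (3.29 FPKM), Sv2c (3.19 FPKM) and Syt9 (2.90 FPKM). The sum over all 44 genes differed little between groups. It had a median of 4990 FPKM in AL and 4936 FPKM in CR mice at 5 months, and of 5021 FPKM in AL and 4960 FPKM in CR mice at 15 months. All 4 ranges overlapped, the lowest library being at 4169 FPKM and the highest at 5394 FPKM.

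**Figure D1:**
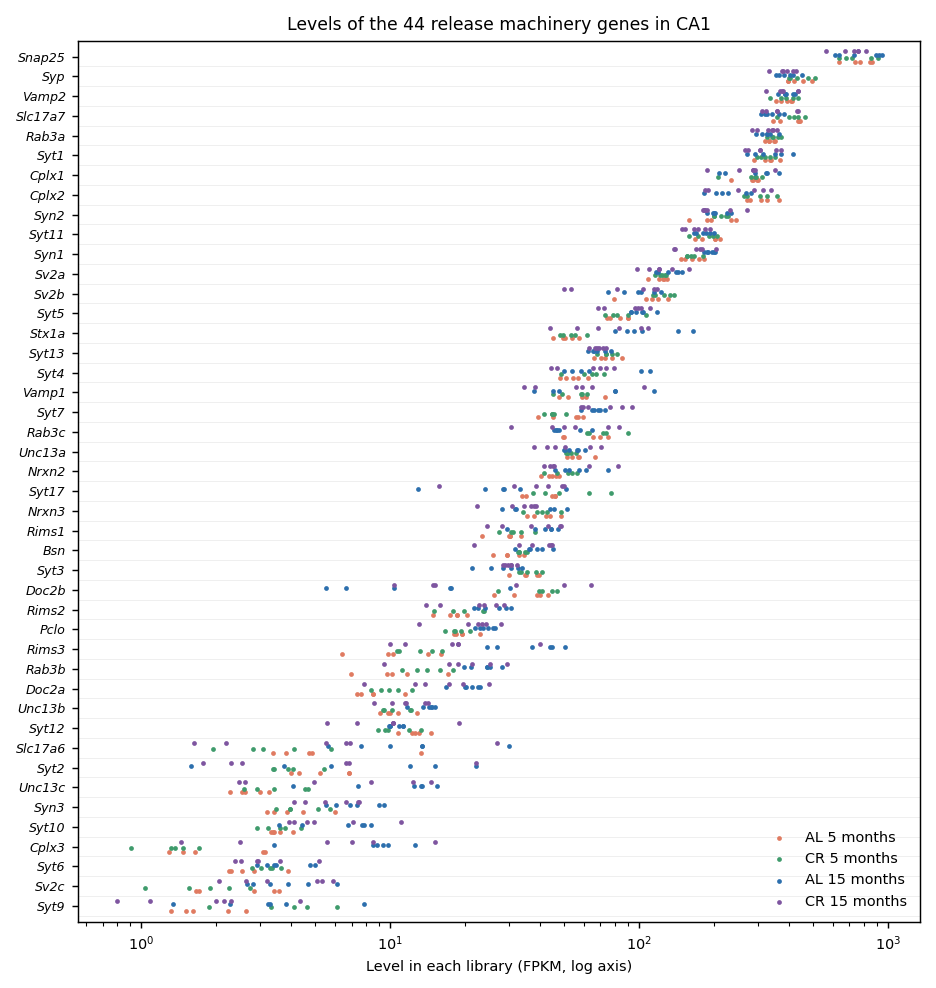
Level of each of the 44 genes in each of the 22 libraries, in FPKM on a log axis, with genes ordered by their mean and 1 point per library coloured by diet and age. Snap25 (mean 759 FPKM) is at the top and Syt9 (2.90 FPKM) at the bottom, and points of the 4 groups are intermixed for most of the abundant genes.

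Spread between mice was larger at 15 months. The median SD of log2 levels over the 44 genes was 0.175 in AL and 0.184 in CR mice at 5 months, against 0.242 in AL and 0.383 in CR mice at 15 months. Over all genes tested the corresponding medians were 0.157, 0.172, 0.202 and 0.252. The most variable gene was Slc17a6 in AL mice at 5 months (SD 0.769) and in CR mice at 15 months (SD 1.40), Syt9 in CR mice at 5 months (SD 0.619) and Syt2 in AL mice at 15 months (SD 1.39). Rab3a was the least variable in AL mice at 5 months (SD 0.0538) and Syn1 in AL mice at 15 months (SD 0.0575).

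Age in AL-fed mice was the comparison with the largest number of called genes. In 15-month-old against 5-month-old AL mice, 15 of the 44 were called at a Benjamini-Hochberg adjusted p under 0.05 (limma on log2(FPKM + 0.1)), against 20.6% of all genes tested. Of these 15, 12 were higher at 15 months, where 10.7% of all genes were, and 3 were lower, where 9.97% were. The median log2 fold change of the 44 genes was 0.26, beside -0.0018 over all genes tested; it was 0.175 without AL 15 months replicate 0 and -0.0275 with the region score as a covariate. Differences lay above 0 for 30 genes and below 0 for 14. At an unadjusted p under 0.05, 22 of the 44 passed, against 35.2% of all genes. For 9 of the 44 no library of one age overlapped the other age, against 14% of all genes. With the region score as a covariate 0 of the 44, and 0 of all genes tested, were called. The score of AL mice did not overlap between the ages, so in these mice age and score cannot be told apart and this fit says little about either. Its standard errors were wider, and differences such as Syn3 (0.74 ± 0.33), Unc13c (1.24 ± 0.68), Rims3 (0.85 ± 0.43) and Syt7 (0.58 ± 0.20) kept their sign, with adjusted p-values of 0.30 to 0.51. Cplx3 (0.59 ± 0.65), Doc2a (0.34 ± 0.23) and Stx1a (0.37 ± 0.28) kept their sign but were much smaller than without the score. Doc2b (0.71) and Rims2 (-0.0177) changed sign. With the 2 AL libraries at 15 months whose region score was above 0 left out, an alternative chosen after seeing the data, 7 were called, all higher: Syn3, Doc2a, Stx1a, Cplx3, Rims3, Unc13c and Rab3b. That is 15.9% of the 44, where 16.1% of all genes were called. Without the single library AL 5 months replicate 2, 9 were called (20.5%), where 14.0% of all genes were.

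The genes that differed were of low and middle level. Of the 9 genes averaging under 10 FPKM, 4 were called, and of the 22 from 10 to 100 FPKM, 10 were. Among all genes tested at those levels 20.9% and 21.6% were called. Of the 13 most abundant genes only Cplx2 was called, against 17.2% of all genes of at least 100 FPKM. The median size of the log2 difference fell across these levels from 0.78 to 0.35 to 0.071, while over all genes tested it was 0.22, 0.16 and 0.23.

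**Figure D2:**
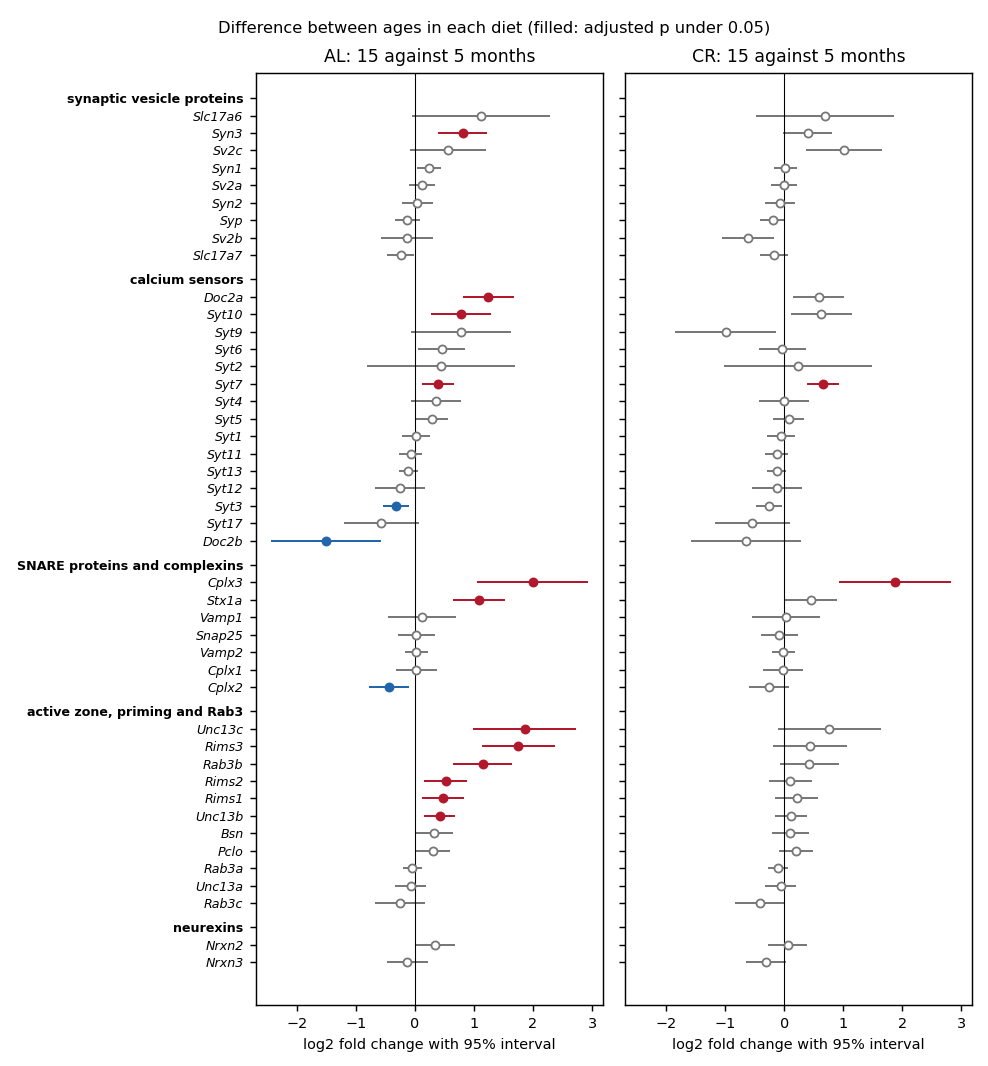
Log2 fold change at 15 against 5 months of each of the 44 genes, grouped by role, in AL mice (left) and CR mice (right), with 95% intervals; filled points mark an adjusted p under 0.05, red for higher and blue for lower at 15 months. In AL mice 12 points are filled red and 3 blue, 6 of the red ones in the active zone group, while in CR mice only Syt7 and Cplx3 are filled.

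Promoters are printed here to place the genes of largest difference in the genome, beside 2 abundant genes that were not called. They are the 5 genes called higher by more than 1 on the log2 scale that have 1 promoter entry lying mostly outside the gene as GENCODE places it. Slc17a7 and Cplx1 are the 2 most abundant genes not called that met the same conditions. Each run is the 250 bases before the gene start in RefSeq on build GRCm38.p6, 5′ to 3′ on the gene's strand, with matches to the motifs named below in capitals.
Cplx3, chr9:57606282-57606531, minus strand: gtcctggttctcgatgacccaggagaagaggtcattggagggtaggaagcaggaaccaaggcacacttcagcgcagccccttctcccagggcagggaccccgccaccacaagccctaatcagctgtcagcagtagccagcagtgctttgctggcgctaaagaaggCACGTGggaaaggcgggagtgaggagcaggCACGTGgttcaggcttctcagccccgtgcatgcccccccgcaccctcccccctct
Unc13c, chr9:73969038-73969287, minus strand: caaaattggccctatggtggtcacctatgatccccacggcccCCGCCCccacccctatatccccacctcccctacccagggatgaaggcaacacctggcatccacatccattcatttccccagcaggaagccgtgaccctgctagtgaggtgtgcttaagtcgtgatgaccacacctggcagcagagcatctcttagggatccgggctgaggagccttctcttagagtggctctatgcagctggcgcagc
Rims3, chr4:120854549-120854798, plus strand: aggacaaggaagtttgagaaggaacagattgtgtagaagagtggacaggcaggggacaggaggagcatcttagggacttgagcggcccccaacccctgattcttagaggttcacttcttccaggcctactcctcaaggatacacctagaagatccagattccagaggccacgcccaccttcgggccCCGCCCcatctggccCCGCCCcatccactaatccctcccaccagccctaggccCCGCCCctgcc
Rab3b, chr4:108878820-108879069, plus strand: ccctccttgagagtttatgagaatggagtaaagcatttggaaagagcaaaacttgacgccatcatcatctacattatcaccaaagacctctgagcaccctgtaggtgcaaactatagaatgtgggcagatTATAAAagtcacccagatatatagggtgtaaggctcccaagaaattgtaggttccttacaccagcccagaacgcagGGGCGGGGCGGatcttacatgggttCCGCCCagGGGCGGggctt
Stx1a, chr5:135023232-135023481, plus strand: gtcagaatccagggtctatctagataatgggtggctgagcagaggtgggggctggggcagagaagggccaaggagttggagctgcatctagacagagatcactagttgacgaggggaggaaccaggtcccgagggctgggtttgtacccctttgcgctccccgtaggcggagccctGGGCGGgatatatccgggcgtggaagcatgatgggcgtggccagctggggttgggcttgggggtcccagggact
Slc17a7, chr7:45163671-45163920, plus strand: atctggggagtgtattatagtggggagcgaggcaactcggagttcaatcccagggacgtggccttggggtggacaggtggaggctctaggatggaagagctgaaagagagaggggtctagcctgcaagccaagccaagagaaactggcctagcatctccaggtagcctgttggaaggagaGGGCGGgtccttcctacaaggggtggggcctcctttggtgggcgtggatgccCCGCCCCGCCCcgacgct
Cplx1, chr5:108550028-108550277, minus strand: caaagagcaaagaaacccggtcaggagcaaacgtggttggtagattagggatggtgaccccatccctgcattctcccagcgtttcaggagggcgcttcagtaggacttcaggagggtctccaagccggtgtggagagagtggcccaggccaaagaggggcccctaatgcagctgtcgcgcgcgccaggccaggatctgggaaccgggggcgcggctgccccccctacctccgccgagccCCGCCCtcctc

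Of the 44 genes, 31 had an entry among 27025 promoters. Motifs were searched on both strands, and none contains another. The GC box (GGGCGG) was found in 24 of the 31, or 77.4%, against 32.9% of all promoters, and the median GC content was 60.8% against 52.0%. Among the printed runs the Rims3 promoter held 3 GC boxes, the nearest starting 11 bases before the gene start, and the Rab3b promoter held 4 with a TATA box (TATAAA) 120 bases before the start. The Cplx3 promoter held no GC box and 2 E-boxes (CACGTG), at 85 and 55 bases. E-boxes were in 3 of the 31 promoters (6.05% of all), TATA boxes in 2 (13.0%), and the cyclic AMP response element TGACGTCA (1.62%), the EGR site GCGTGGGCG (0.54%) and the RE1 sequence TTCAGCACC (0.285%) in 1 each. Of the 10 called genes with an entry, 7 held a GC box. A match is a description of letters and not evidence of binding.

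Active zone, priming and Rab3 proteins made up the role group with the most called genes, 6 of 11, all higher in AL mice at 15 months, where 20.6% of all genes were called and 10.7% were called higher. Rims3 (chromosome 4, 120854816 to 120896579, GRCm38), a short RIM protein without the Rab3-binding part of RIM1, had 16.0, 9.82, 10.3, 6.38 and 14.2 FPKM in the 5 AL mice at 5 months. At 15 months its lowest, median and highest values were 24.5, 40.5 and 50.5 FPKM. Every 15-month library thus lay above every 5-month library, and the log2 difference and its SE were 1.75 ± 0.29 (adjusted p = 0.00066). Unc13c (chromosome 9, 73479422 to 73968966) encodes Munc13-3, a priming factor best known from the cerebellum. It had 3.01, 2.27, 2.55, 2.61 and 3.25 FPKM at 5 months and 4.09, 12.9 and 15.5 FPKM (lowest, median, highest) at 15 months. The groups did not overlap, with a log2 difference of 1.86 ± 0.41 (adjusted p = 0.0039). The 2 AL libraries at 15 months with the highest region scores, at 4.09 and 7.42 FPKM, held the lowest Unc13c of their group. Rab3b (chromosome 4, 108879063 to 108943324), a vesicle GTPase related to Rab3a, had 10.1, 6.98, 11.6, 9.76 and 17.1 FPKM at 5 months. Its values at 15 months were 19.8, 24.5 and 28.1 FPKM. They did not overlap those at 5 months, and the log2 difference was 1.14 ± 0.23 (adjusted p = 0.0021). An antisense gene overlaps exons of Rab3b, and the library kit does not keep strand, so reads of the pair cannot be told apart there.

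The larger RIM scaffolds and Munc13-2 differed by less. Rims2, which tethers calcium channels and vesicles, had 17.4, 14.9, 18.6, 18.6 and 20.5 FPKM at 5 months and 21.7, 25.7 and 30.7 FPKM at 15 months. These did not overlap, and the log2 difference was 0.52 (adjusted p = 0.032). Rims1, the other long RIM, had 29.9, 30.3, 30.2, 23.4 and 33.4 FPKM at 5 months and 29.4, 43.1 and 47.4 FPKM at 15 months. One 15-month library lay within the 5-month range, and the log2 difference was 0.47 (adjusted p = 0.048). Rims1 was called in 7 and Rims2 in 16 of the 22 fits that left out 1 library. Of the 11 of these fits that left out an AL library, Rims1 was called in 1 and Rims2 in 5. Leaving out a CR library does not alter the AL difference itself. Unc13b had 9.09, 10.8, 9.79, 12.9 and 10.01 FPKM at 5 months and 11.6, 14.5 and 15.1 FPKM at 15 months. The groups overlapped in 1 library, and the log2 difference was 0.42 (adjusted p = 0.018). The scaffolds Bsn and Pclo, with log2 differences of 0.32 (adjusted p = 0.11) and 0.31 (adjusted p = 0.0999), did not pass. Rab3a (-0.05, adjusted p = 0.67), Unc13a, the main Munc13 of the forebrain, and Rab3c were not called either. The summed level of the 11 genes had a median of 587 FPKM at 5 months and 654 FPKM at 15 months.

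Of the 7 SNARE proteins and complexins, 3 were called, where 20.6% of all genes were. Cplx3 (chromosome 9, 57599992 to 57606281), a complexin known from retinal ribbon synapses and the cortical subplate, had 3.09, 1.64, 1.30, 1.48 and 3.15 FPKM in AL mice at 5 months. Its values at 15 months were 3.42, 9.10 and 12.6 FPKM, so the groups did not overlap, although the lowest 15-month library stood near the highest 5-month one. The log2 difference was 1.99 ± 0.45 (adjusted p = 0.0043), the largest of the 44 genes in this comparison. Stx1a (chromosome 5, 135023482 to 135051100), the target membrane SNARE syntaxin 1A, had 53.8, 57.4, 49.6, 45.2 and 50.4 FPKM at 5 months and 80.0, 98.8 and 165 FPKM at 15 months. The groups did not overlap, with a log2 difference of 1.09 ± 0.20 (adjusted p = 0.0013). The 2 highest values, 165 and 144 FPKM, were in the 2 libraries with a region score above 0. Cplx2 differed the other way, with 310, 366, 326, 278 and 271 FPKM at 5 months and 183, 222 and 282 FPKM at 15 months. Its groups overlapped and its log2 difference of -0.44 lay at the threshold (adjusted p = 0.04997). Cplx2 was called in 7 of the 22 fits that left out 1 library, and in 2 of the 11 that left out an AL library. Snap25 (0.02), Vamp2 (0.02), Cplx1 (0.02) and the second vesicle SNARE Vamp1 (0.11) had adjusted p-values of 0.80 to 0.94. The 95% interval for Snap25 ran from -0.28 to 0.32, and that for Vamp2 from -0.16 to 0.20.

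Of the 15 calcium sensors, 3 were called higher and 2 lower in AL mice at 15 months, where 10.7% and 9.97% of all genes were. Doc2a (chromosome 7, 126847416 to 126852705), a high-affinity sensor tied to asynchronous and spontaneous release, had 11.5, 8.56, 7.66, 8.56 and 7.39 FPKM at 5 months. At 15 months its values were 16.8, 20.7 and 23.0 FPKM, with no overlap and a log2 difference of 1.24 ± 0.20 (adjusted p = 0.00058), the lowest adjusted p of the 44 genes. Its paralog Doc2b (chromosome 11, 75768966 to 75796049) had 31.4, 26.3, 40.0, 43.0 and 38.9 FPKM at 5 months and 5.53, 13.9 and 30.3 FPKM at 15 months. One 15-month library reached the 5-month range, and the log2 difference was -1.51 ± 0.44 (adjusted p = 0.020). The 2 lowest Doc2b values, 5.53 and 6.63 FPKM, were in the 2 libraries with a region score above 0, and with the score as a covariate the difference changed sign (0.71). Doc2a and Doc2b each overlap exons of a gene on the opposite strand, Ino80e and Gm12339, from which their reads cannot be told apart in the shared bases.

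Among the synaptotagmins, Syt10 had 3.43, 4.07, 3.40, 3.31 and 3.61 FPKM at 5 months and 3.59, 7.25 and 8.38 FPKM at 15 months. One 15-month library overlapped the younger group, and the log2 difference was 0.78 (adjusted p = 0.026). Syt7, a slow high-affinity sensor involved in facilitation and asynchronous release, had 57.1, 59.8, 45.2, 55.8 and 39.1 FPKM at 5 months and 58.5, 67.2 and 73.2 FPKM at 15 months, with a log2 difference of 0.39 (adjusted p = 0.029) and an overlap of 1 library. Syt7 shares exonic bases with Gm26859 on the opposite strand, so reads there cannot be told apart, in either diet. Syt3 was lower, with 30.1, 39.6, 38.7, 34.7 and 35.2 FPKM at 5 months and 21.3, 29.5 and 34.0 FPKM at 15 months. Its groups overlapped and its log2 difference was -0.32 (adjusted p = 0.027). With 1 library left out in turn, Syt10 was called in 17, Syt7 in 18 and Syt3 in 18 of 22 fits. Of the 11 fits that left out an AL library, Syt10 was called in 6, Syt7 in 7 and Syt3 in 7. The abundant fast sensor Syt1 differed by 0.02 (95% interval -0.21 to 0.24). Syt5, whose groups did not overlap, differed by 0.29 (adjusted p = 0.089), Syt6 by 0.45 (adjusted p = 0.085), Syt9 by 0.78 (adjusted p = 0.17) and Syt17 by -0.57 (adjusted p = 0.18). Syt2, the fast sensor of many interneurons and hindbrain neurons, ranged from 1.58 to 22.1 FPKM within the AL mice at 15 months, and its interval of -0.79 to 1.68 was the widest of the 44 genes. Syt4, Syt11, Syt12 and Syt13 were not called.

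Of 9 synaptic vesicle proteins only Syn3 was called, where 20.6% of all genes were. Syn3 (chromosome 10, 86055125 to 86498896), the synapsin most abundant early in development, had 4.47, 3.21, 3.86, 6.02 and 3.43 FPKM at 5 months and 5.54, 7.11 and 9.47 FPKM at 15 months. The groups overlapped through 1 young library, and the log2 difference was 0.81 ± 0.19 (adjusted p = 0.0059). Syn3 shares exonic bases with Timp3 on the opposite strand. Syn1 did not overlap between the ages, at 147 to 182.7 FPKM and 183.2 to 202 FPKM, but its log2 difference of 0.24 did not pass (adjusted p = 0.058). Syp (-0.13, adjusted p = 0.32), Syn2 (0.04, adjusted p = 0.84), Sv2a (0.12, adjusted p = 0.38) and Sv2b (-0.14, adjusted p = 0.66) did not pass. The 2 vesicular glutamate transporters differed with opposite sign, VGLUT1 (Slc17a7) by -0.25 (adjusted p = 0.092) and VGLUT2 (Slc17a6) by 1.12 (95% interval -0.04 to 2.27, adjusted p = 0.15). Neither Nrxn2 (0.34, adjusted p = 0.12) nor Nrxn3 (-0.13), presynaptic adhesion proteins, was called.

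**Figure D3:**
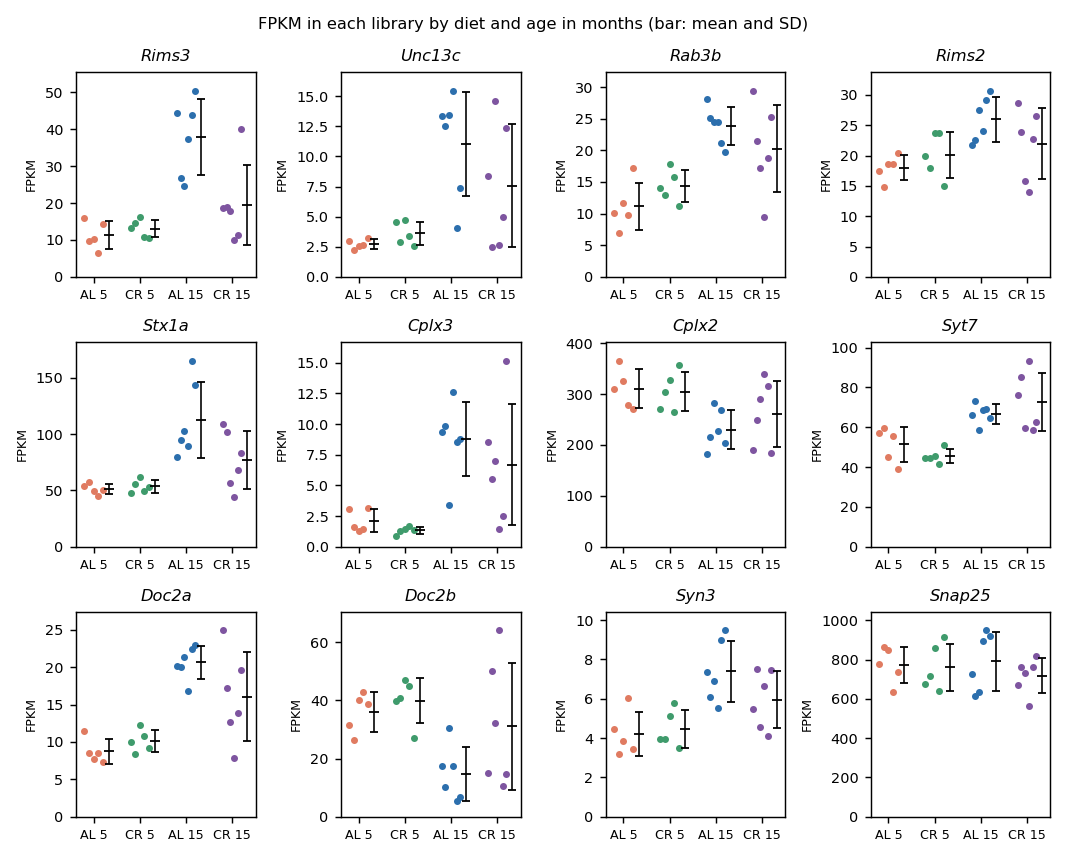
FPKM of 12 genes in each library, with the mean and SD of each group drawn beside its points and axes starting at 0. Rims3, Unc13c, Rab3b, Rims2, Stx1a, Cplx3 and Doc2a of AL mice lie wholly higher at 15 than at 5 months, Cplx2 and Doc2b are lower there, and Snap25, the most abundant gene, overlaps between all 4 groups.

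Ratios between related genes within a library do not depend on how libraries are scaled, and are given here with no test. In AL mice 5 ratios did not overlap between the ages. Cplx3 to Cplx2 had a median of 0.00531 at 5 months and 0.0444 at 15 months, a ratio of medians of 8.37. Unc13c to Unc13a rose from a median of 0.0448 to 0.229, or 5.12 times. Rims3 to Rims1 had medians of 0.341 and 0.883 (2.59 times), and Rab3b to Rab3a had medians of 0.0305 and 0.0716 (2.34 times). The minor paralog of each pair thus held a larger share at 15 months, yet only Rims3 exceeded its partner in any AL library, at up to 1.52 times Rims1. Doc2a to Doc2b, a pair chosen after seeing the data, had medians of 0.199 and 1.54, so that Doc2b was the higher of the pair in every AL library at 5 months. The ratios of Syn2 to Syn1, Sv2a to Sv2b, Sv2c to Sv2b, Syt2 to Syt1, Vamp1 to Vamp2, Cplx1 to Cplx2 and Slc17a6 to Slc17a7 overlapped between the ages.

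**Figure D4:**
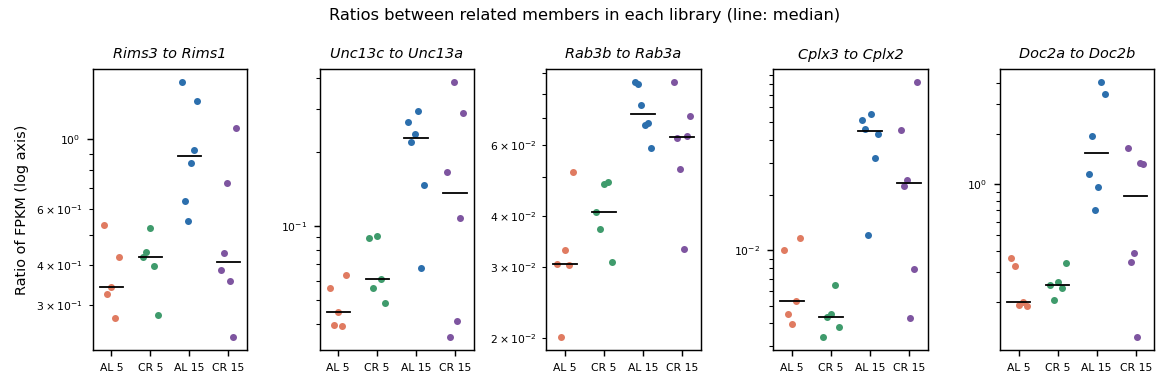
Ratio of FPKM between 5 pairs of related genes in each library, on log axes, with the median of each group as a line. The AL libraries at 15 months lie above those at 5 months in all 5 pairs, and the CR libraries at 15 months spread over both ranges.

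Other genes of the release pathway, 33 in all of which 32 could be tested, were called in both directions. In AL mice 8 of the 32 were called, where 20.6% of all genes were. Of these 8, 4 were higher and 4 lower at 15 months, where 10.7% and 9.97% of all genes were. Among the higher ones were Syngr3 (0.34), a vesicle membrane protein, Rims4 (0.72), the other short RIM protein, and Ppfia3 (0.23), a liprin of the active zone. The lower ones were Ppfia2 (-0.58), Rab3d (-0.50), Rab27b (-0.44) and Cadps2 (-0.76), the last a priming factor of dense-core vesicles. Their median log2 fold change was -0.02. The difference between these genes and the 44 was not tested.

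In CR-fed mice, few of the 44 genes differed with age. In 15-month-old against 5-month-old CR mice 2 of the 44 were called, both higher, against 3.36% of all genes tested (1.1% higher and 2.26% lower). Their median log2 fold change was -0.0049, and 11 of them had an unadjusted p under 0.05, where 18% of all genes did. The 2 ages did not overlap in 2 genes, Syt7 and Syt3, against 3.26% of all genes. Syt7 had 44.7, 44.8, 45.7, 41.5 and 50.9 FPKM in CR mice at 5 months and 58.5, 69.3 and 93.5 FPKM at 15 months. All older libraries were higher, and the log2 difference was 0.65 ± 0.12 (adjusted p = 0.0042). Cplx3 had 0.910, 1.32, 1.47, 1.70 and 1.37 FPKM at 5 months and 1.45, 6.28 and 15.2 FPKM at 15 months. Its lowest older library lay within the younger range, while 4 older libraries were at 5.56 FPKM or more, and the log2 difference was 1.88 ± 0.45 (adjusted p = 0.021). With the region score as a covariate 0 of the 44 were called, where 0.106% of all genes were. The Syt7 difference was then 0.77 ± 0.16 and just missed the threshold (adjusted p = 0.0502), and that of Cplx3 was 1.01 ± 0.51 (adjusted p = 0.41). Cplx3 did not pass with the 2 groups fitted on their own (1.88, adjusted p = 0.11), nor without CR 5 months replicate 0, CR 5 months replicate 1 or CR 15 months replicate 0. Doc2a passed as well without CR 15 months replicate 3 (0.77, adjusted p = 0.0082), where 4.56% of all genes were called.

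Other CR differences with age that did not pass after adjustment were Sv2c (1.02, adjusted p = 0.068), Sv2b (-0.61, adjusted p = 0.11), Doc2a (0.58, adjusted p = 0.12), Syt10 (0.63, adjusted p = 0.16) and Syt9 (-0.99, adjusted p = 0.19). Rims3 had 13.2, 14.7, 16.1, 10.8 and 10.6 FPKM in CR mice at 5 months and 9.98, 18.2 and 40.0 FPKM at 15 months, with a single older library above 18.8 FPKM. Unc13c ranged from 2.58 to 4.69 FPKM at 5 months and from 2.47 to 14.6 FPKM at 15 months. In Rims3 that single library reached the range of AL mice at 15 months, and the other 5 lay below it. CR and AL mice share no library in these age comparisons. Whether the age difference was the same in both diets was tested by the interaction given below. Of the 32 other release genes 1 was called in CR mice, where 3.36% of all genes were. It was Rph3a (0.59, adjusted p = 0.038), the Rab3 effector rabphilin.

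At 5 months, diet made no difference that passed the test. CR against AL mice at 5 months gave 0 of the 44 called, as it gave 0 of all genes tested (0%), with limma. At an unadjusted p under 0.05, 1 of the 44 passed, against 4.65% of all genes. That gene was Syt9, with 1.51, 1.32, 1.61, 2.23 and 2.64 FPKM in AL mice and 4.12, 1.88, 6.12, 4.63 and 3.31 FPKM in CR mice. These overlapped, with a log2 difference of 1.01 (adjusted p = 1). Slc17a6 had the largest difference below 0 (-0.65), and the median of the 44 was 0.03. No gene was without overlap, where 1.36% of all genes were. The intervals of the abundant genes were narrow: Rab3a -0.10 to 0.21, Vamp2 -0.18 to 0.19 and Syn1 -0.19 to 0.19 on the log2 scale.

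At 15 months, 0 of the 44 genes were called between CR and AL mice, against 0.742% of all genes tested (0.33% higher and 0.412% lower). At an unadjusted p under 0.05, 6 of the 44 passed, where 17.1% of all genes did. None of the 44 was without overlap, against 0.984% of all genes. Levels were lower in CR mice for 35 of the 44 genes and higher for 9, with a median log2 difference of -0.13 beside -0.0012 over all genes. That median was -0.078 without CR 15 months replicate 3, -0.081 without CR 15 months replicate 2 and -0.029 with the region score as a covariate. This comparison shares its AL libraries with the AL age comparison. By role, 10 of 11 active zone genes, 6 of 7 SNARE and complexin genes, 10 of 15 synaptotagmin and Doc2 genes, 7 of 9 vesicle proteins and both neurexins lay below 0.

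The gene nearest to the threshold was Rims3, with 18.7, 18.8, 17.8, 9.98, 11.4 and 40.0 FPKM in the 6 CR mice at 15 months against 24.5 to 50.5 FPKM in AL mice. One CR library lay within the AL range and 5 below it, and the log2 difference was -1.06 ± 0.28 (adjusted p = 0.073). It passed when either of 2 CR libraries was left out, at -1.08 (adjusted p = 0.046) without CR 15 months replicate 0 and at -1.30 (adjusted p = 0.015) without CR 15 months replicate 5. Stx1a had 109, 102, 56.4, 44.1, 68.5 and 83.0 FPKM in CR mice, with 3 libraries below the lowest AL library, and differed by -0.57 (adjusted p = 0.15). Without CR 15 months replicate 0, Stx1a (-0.68, adjusted p = 0.048) and Syn1 (-0.27, adjusted p = 0.0496) passed too. Calls rose over all genes as well, to 4.31% without replicate 0 and 2.9% without replicate 5, from 0.742% with all libraries. Doc2b (1.01, adjusted p = 0.23) and Slc17a6 (-1.07, adjusted p = 0.30) had the largest differences in either direction. Doc2a (-0.44, adjusted p = 0.25) and Unc13b (-0.28, adjusted p = 0.21) did not pass after adjustment.

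The interaction of age and diet, which asks whether the age difference of CR mice differs from that of AL mice, gave 0 of the 44 called and 0% of all genes tested. Unadjusted p-values were under 0.05 for 5 of the 44, against 7.66% of all genes. These were Syt9 (-1.76, adjusted p = 0.61), Rims3 (-1.32, adjusted p = 0.61), Rab3b (-0.72, adjusted p = 0.64), Doc2a (-0.66, adjusted p = 0.64) and Stx1a (-0.63, adjusted p = 0.64). The 12 genes higher with age in AL mice are therefore not shown to differ in their response between diets.

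The older CR libraries differed among themselves. Replicate 3 had a region score of -3.78, within the range of the 5-month groups. Its values for Rims3 (9.98 FPKM), Cplx3 (1.45 FPKM), Unc13c (2.61 FPKM), Doc2a (7.87 FPKM) and Rab3b (9.48 FPKM) lay within the range of AL mice at 5 months. Its Stx1a (44.1 FPKM) and Rims2 (13.9 FPKM) lay below that range. Its Doc2b (64.0 FPKM), Syt7 (93.5 FPKM), Syn3 (6.65 FPKM) and Syt10 (7.12 FPKM) lay above it. Replicate 1 had a score of -2.73, also within the range of AL mice at 5 months, but its Rims3 (18.8 FPKM), Doc2a (17.3 FPKM), Rab3b (21.4 FPKM) and Stx1a (102 FPKM) lay above their levels in those mice. The part of the region score in these values was not tested.

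**Figure D5:**
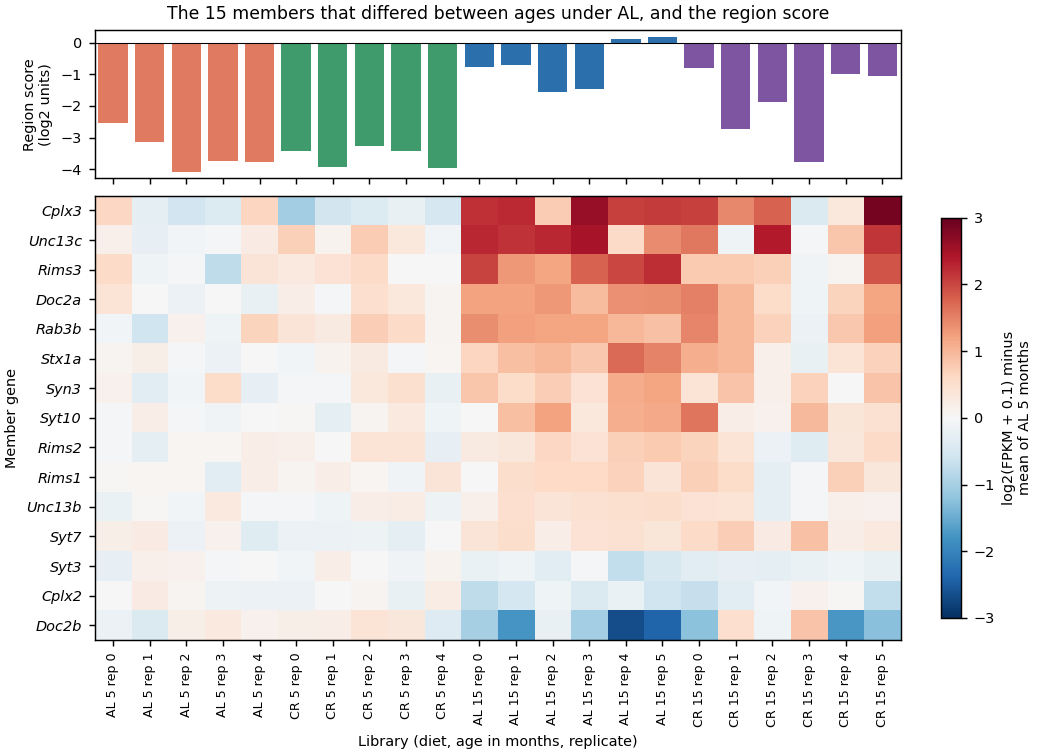
Above, the region score of each library in log2 units; below, the level of the 15 genes called with age in AL mice in each library, as log2(FPKM + 0.1) minus the mean of AL mice at 5 months, red for higher and blue for lower. The AL libraries at 15 months are mostly red for the upper 12 genes and have scores of -1.56 to 0.185. CR 15 months replicate 3, with a score of -3.78, is pale for Rims3, Doc2a and Rab3b. Its Syt7 (93.5 FPKM) is above every AL library at 5 months.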

How the data were processed

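CA1 mRNA libraries of 22 mice were compared by diet and age as the labels give them. The authors sequenced TruSeq libraries, which do not keep strand, aligned paired reads to mm10 with TopHat, removed duplicates with Picard, and estimated FPKM with Cufflinks, with corrections for fragment bias and multiply mapped reads; tool versions and the annotation release are not given in the sources used here. The deposited FPKM values were used as they stand, and no column was left out.

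The 16978 genes averaging 0.1 FPKM or more were analysed as log2(FPKM + 0.1), so that changes of low genes are understated. All 22 libraries entered 1 limma 3.58.1 fit (R 4.3.3, eBayes with trend), and calls were made two-sided at p under 0.05 after Benjamini-Hochberg adjustment over all genes tested in that contrast. Values are given in full for every member called in at least 1 contrast; the other members are given by level, range and counts. The steps were tested on simulated data. Whole reads were sought and not recovered: at most 0.989% of genes in 3 library pairs lay on a common ratio, within 0.1%. The depth of each library is therefore unknown, and the precision of a value comes from the spread between mice.

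The 44 members, the 33 other release genes and the 13 marker lists (76 genes) were chosen with earlier results of these data known. The values of 1 other release gene are not reported here. Coordinates are from GENCODE M21 on GRCm38, the build also named mm10, and promoters are from RefSeq. Python 3.11.15 was used for tables (pandas 2.3.3, numpy 2.4.6) and figures (matplotlib 3.10.9). Alternatives were pseudocounts of 1 and 0.01, a filter at 1 FPKM, no filter, quantile normalization, a shift of all libraries to 1 median, eBayes without trend, separate fits, the replicate number as a block, the region score as a covariate, and each library left out. The region score is measured in the same libraries as the members.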

Additional observations from a re-analysis of the deposited data

Results flagged for a closer look

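In each group, the highest or lowest library of each of the 44 genes was compared with the gap to its nearest neighbour (Dixon's 95% limit), in 176 sets, of which 4 stood apart; chance alone flags about 1 in 20. Slc17a6 was at 13.3 FPKM in AL 5 months replicate 0, against 3.39 to 4.85 FPKM in the other 4 libraries. Cplx1 was low in 1 library of each group at 5 months, at 235 FPKM in AL replicate 3 (others 285 to 300 FPKM) and at 208 FPKM in CR replicate 3 (others 282 to 312 FPKM). Cplx3 was at 3.42 FPKM in AL 15 months replicate 2, against 8.56 to 12.6 FPKM in the other 5.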

How the results depend on the processing

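For the 15 genes called in AL mice, followed in the age comparison of each diet and between diets at 15 months (45 results, 1485 alternative values), 1383 values kept their direction and side of the threshold, 89 kept direction but no longer passed, 5 newly passed and 8 changed sign. Of these results only 15 in AL mice and 2 in CR mice were called to begin with. The 89 lie among those alone, while the 1383 include values of results that were not called. Across all 44 genes the alternatives made 25 calls not made in the values reported, 20 of them of 8 genes called in none of the comparisons reported: Syn1, Syt5, Syt6, Syt12, Bsn, Pclo, Nrxn2 and Sv2c. In AL mice the 15 genes called with age became 0 with the region score as a covariate (3 at an unadjusted p under 0.05), where 0% of all genes were called. Without AL 15 months replicates 4 and 5 they became 7, where 16.1% of all genes were called. When each library was left out in turn they became 9 to 18. The count was 9 without AL 5 months replicate 2 (14.0% of all genes) and 18 without CR 15 months replicate 2 (23.1%). Cplx3, Doc2a, Doc2b, Rab3b, Rims3, Stx1a, Syn3, Unc13b and Unc13c were called in all 22 fits that left out 1 library. In CR mice the 2 genes became 1 with separate fits (1.91% of all genes) or the replicate block (3.63%), and 0 with the region score (0.106%). They became 1 to 3 with a library left out. The count was 1 without CR 5 months replicate 0 (2.88% of all genes) or 1 (1.95%). It was 3 without CR 15 months replicate 2 (4.12%) or 3 (4.56%). Between diets at 15 months the count of 0 became 1 (Rims3) with the replicate block and 0 to 3 with a library left out. Of all genes 1.9% were called with the block, and 4.31% without CR 15 months replicate 0, the fit with 3. Between diets at 5 months and for the interaction the count of the 44 was 0 in every alternative, where at most 0.0118% of all genes were called. With the region score, the log2 difference with age changed sign for Doc2b (0.71) and Rims2 (-0.0177) in AL mice, for Doc2b (0.74), Rims2 (-0.24) and Rims3 (-0.13) in CR mice, and for Syt3 between diets at 15 months (-0.0232). Without AL 15 months replicates 4 and 5, the difference between diets changed sign for Syt3 (-0.0567) and Syt10 (0.0134). The cause of these shifts was not tested. Replicate numbers are no pairing: over 31 same-numbered pairs the correlation of deviations was -0.14 to 0.16, with 2 above 0.1. In AL mice the block gave 12 called (27.3% of the 44), where 22.1% of all genes were. The read depth of each library is unknown and limits the genes of low level in a way that cannot be stated.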
